A study of Mus musculus with 24 samples.

Results

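The SOXB genes encode transcription factors that bind DNA through an HMG box. *Sox1*, *Sox2* and *Sox3* form the SOXB1 subgroup, whose proteins activate transcription and keep neural progenitors undifferentiated. They recognise similar DNA motifs, bind together with partner proteins such as POU-domain factors, and are known for overlapping functions. *Sox21* belongs to the SOXB2 subgroup, whose proteins act mainly as repressors and counter SOXB1 factors when progenitors become neurons. *Sox1* is one of the earliest markers of neural commitment, *Sox2* is also a factor of pluripotent cells, and *Sox3* lies on the X chromosome. The rows of these 4 genes were taken by symbol from tables of 26411 genes. The question was whether *Sox2* or *Sox3* was higher where *Sox1* was lower.

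The data were RNA-seq counts of neural stem and progenitor cells (NSPCs), taken from the dorsal telencephalon of C57BL/6 mouse embryos at E12.5 and put into neurosphere culture. Embryos carried both functional alleles of *Kat6a*, a histone lysine acetyltransferase gene (*Kat6a*+/+), 1 functional allele (*Kat6a*+/-) or none (*Kat6a*-/-). The null allele, present from the germline on, lacks several exons and ends translation early in the catalytic domain. The authors report that proliferating *Kat6a*+/- colonies were smaller and inclined to attach. Proliferating *Kat6a*-/- cells gave few floating colonies and adhered to the plastic. RNA was collected after 3 days with FGF2 and EGF (proliferating) or after 3 days on poly-L-ornithine and laminin with serum and no growth factors (differentiating). The 24 libraries formed 6 groups of 4, each library from 1 embryo, and all cultures had been frozen at an early passage. Another RNA kit was used in each condition, so kit and condition cannot be told apart. Levels are given as CPM, read counts brought to a common library size with TMM factors, which compare 1 gene between libraries, and as RPKM, which divide CPM by the counted exon length and compare genes. Calls use the FDR, the p-value adjusted over every gene in a limma fit, with 0.05 as the limit.

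Library totals were 7826660 to 40838203 counts, litters were shared in part by genotypes, and more *Kat6a*+/+ than mutant libraries held Y-linked reads. Of 6 embryo labels found in both conditions, 5 had the same Y-linked state in both libraries. The *Kat6a*+/+ embryo labelled 4113_7 had Y-linked reads at 0.049 CPM in its proliferating library (replicate 1) and at 211 CPM in its differentiating library (replicate 1), which differs from what a shared embryo would give. The labels 4346_7 (*Kat6a*+/+ proliferating replicate 2) and 4364_7 (*Kat6a*+/+ differentiating replicate 2) differ in the order of their digits, and Y-linked reads were at 220 CPM in the former and 0.109 CPM in the latter. They were treated as separate embryos and litters. Comparisons between conditions are given with and without the label 4113_7. Reads were counted along all of *Kat6a*, exons outside the deletion included, and so leave the genotype labels unchecked. The 10 neural progenitor genes such as *Nes* and *Vim* summed to 7117 to 13990 CPM over all libraries. *Emx1*, a dorsal telencephalon marker, was at 0.258 CPM or less in every library. Of 4 ventral telencephalon markers, *Nkx2-1* had no count, and their sum was at most 5.33 CPM in proliferating libraries. In differentiating cells the sum was 1.03 to 2.34 CPM in *Kat6a*-/- and 4.10 to 26.3 CPM in *Kat6a*+/+ libraries. The 3 tested genes were called lower in *Kat6a*-/- cells, as were 27.7% of all tested genes. They fell by 3.07 (*Dlx1*) to 3.62 (*Gsx2*) on the log2 scale (limma FDR 0.000355 to 0.00503).

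Each SOXB gene has a single exon in GENCODE vM39. On mm39 (GRCm39), *Sox1* (Entrez 20664) spans chromosome 8 from 12445295 to 12450126, 10.9 Mb from *Kat6a* on the same chromosome. *Sox2* spans chromosome 3 from 34704554 to 34706610, *Sox3* the X chromosome from 59934972 to 59937036, and *Sox21* chromosome 14 from 118470644 to 118474442. *Sox3* and *Sox21* are on the minus strand.

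The start regions of the genes are shown because the genes were called together in differentiating cells. A RefSeq promoter table of GRCm39 held windows of 250 bases before to 50 bases after the start for *Sox1*, *Sox2* and *Sox21*, and *Sox3* is named only. The windows were searched on both strands for ATGCAAAT (the octamer bound by POU factors), ACAAAG (a core motif of SOX factors) and CCAAT. None of the letters of these motifs was allowed to vary, and no match overlapped another. Most of the *Sox1* window lies inside the longer GENCODE transcript, so only 30 bases around its octamer are given (chr8:12445526-12445555, plus strand, in the exon before the coding sequence), with the octamer in capitals. For *Sox2* (chr3:34703894-34704143, plus strand) and *Sox21* (chr14:118474443-118474692, minus strand), the 250 bases before the RefSeq start are given, with any of the 3 motifs in capitals, CCAAT as its complement-strand form. The GENCODE start of *Sox2*, given above, lies 410 bases downstream of its RefSeq start, so the *Sox2* stretch does not adjoin it.
Sox1: gccagcgcgccATGCAAATcaccgccgccg
Sox2: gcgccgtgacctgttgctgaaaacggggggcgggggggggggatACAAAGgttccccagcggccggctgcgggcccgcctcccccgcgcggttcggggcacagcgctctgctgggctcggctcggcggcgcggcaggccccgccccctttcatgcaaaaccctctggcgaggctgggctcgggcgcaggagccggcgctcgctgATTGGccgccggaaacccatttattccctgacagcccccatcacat
Sox21: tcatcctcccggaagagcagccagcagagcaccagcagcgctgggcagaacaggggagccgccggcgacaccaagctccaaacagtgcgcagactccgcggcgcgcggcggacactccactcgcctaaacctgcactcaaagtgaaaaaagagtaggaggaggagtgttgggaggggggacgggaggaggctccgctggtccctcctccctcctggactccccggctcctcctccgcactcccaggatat
The octamer occurred once in the *Sox1* window, against 1.74% of 32851 windows with a match. *Sox2* held ACAAAG once, found in 18.71% of windows, and *Sox1* and *Sox2* held CCAAT once each, found in 37.41%. *Sox21* held none of the 3. All were rich in CpG dinucleotides, with 37 in the *Sox1* window, 27 in that of *Sox2* and 22 in that of *Sox21* against a median of 7. More CpG were found than in 94.4%, 84.5% and 76.9% of all windows, respectively. These are matches of letters in a window, and no binding was measured.

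In *Kat6a*+/+ NSPCs the SOXB genes differed widely in level. Per exon length, *Sox2* was highest in proliferating cells at 132 ± 7.01 RPKM (mean ± SD, n = 4 here and below). *Sox3* followed at 78.3 ± 4.54 RPKM, *Sox21* at 29.2 ± 2.70 RPKM and *Sox1* at 7.88 ± 1.75 RPKM. The single libraries did not overlap between these genes, so the order held in every library. In differentiating *Kat6a*+/+ cells *Sox2* was at 186 ± 16.4 RPKM, *Sox21* at 50.2 ± 8.52 RPKM, *Sox3* at 21.9 ± 5.29 RPKM and *Sox1* at 15.1 ± 4.63 RPKM. There the ranges of *Sox3* (15.7 to 27.9 RPKM) and *Sox1* (10.9 to 20.4 RPKM) overlapped.

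**Figure D1:**
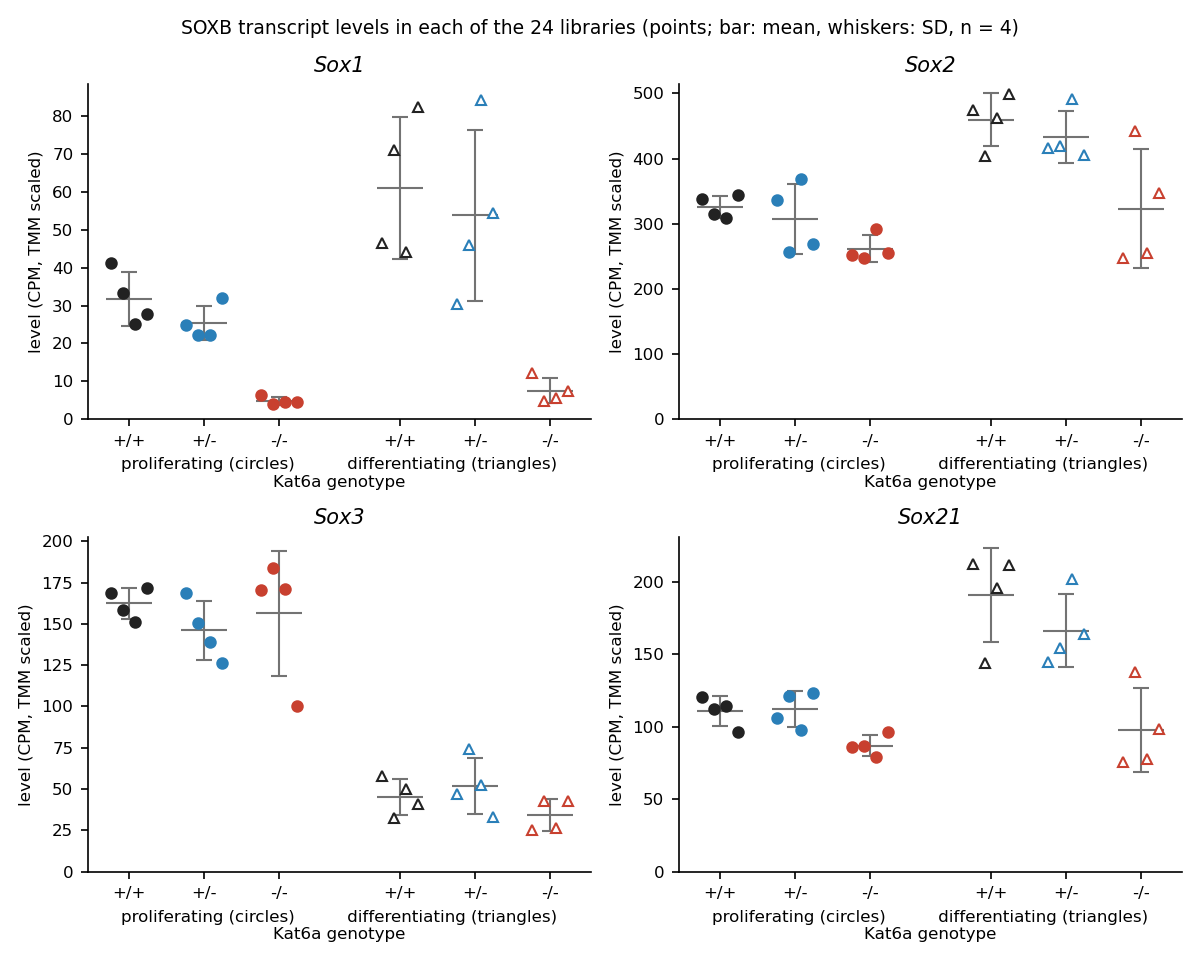
Levels of the 4 SOXB genes in CPM (vertical axes from 0, 1 panel per gene) in each of 24 libraries, by *Kat6a* genotype and condition, with mean and SD bars over 4 libraries. The *Sox1* levels of *Kat6a*-/- libraries, 4.12 to 12.3 CPM, lie below every *Kat6a*+/+ and *Kat6a*+/- library in both conditions, and *Sox3* is lower in differentiating than in proliferating cells in all genotypes.

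*Sox1*, the SOXB1 gene with the lowest level in wild type, was much lower in *Kat6a*-/- NSPCs in both conditions. In proliferating *Kat6a*+/+ NSPCs, *Sox1* was at 41.1, 33.2, 25.1 and 27.8 CPM in replicates 1 to 4. The level in *Kat6a*-/- NSPCs was 6.34, 4.12, 4.49 and 4.59 CPM. All of the latter were below all of the former, and the *Kat6a*-/- mean was 15.4% of the *Kat6a*+/+ mean. The *Kat6a*-/- values rested on 32 to 56 reads a library. The log2 fold-change was −2.60 (SE 0.27, 95% confidence interval −3.18 to −2.02, limma FDR 3.91e-05). In bulk RNA, fewer cells of a type and less RNA per cell cannot be told apart, here and in every result below.

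In differentiating *Kat6a*+/+ NSPCs, *Sox1* was at 46.5, 70.8, 44.1 and 82.3 CPM. *Kat6a*-/- libraries had 12.3, 4.83, 5.72 and 7.36 CPM, from 91 to 179 reads. Again the groups were apart, with a *Kat6a*-/- mean of 12.4% of the *Kat6a*+/+ mean and a log2 fold-change of −2.93 (SE 0.29, 95% interval −3.56 to −2.30, limma FDR 1.09e-05). Within litters that held both genotypes, the log2 difference of *Sox1* between *Kat6a*-/- and *Kat6a*+/+ libraries was −2.26 (litter 4633) and −2.63 (litter 4746) in proliferating cells. It was −2.36 and −3.84 in differentiating cells. Over all alternatives and left-out libraries, *Sox1* stayed called, at −2.79 to −2.49 in proliferating and −3.25 to −2.80 in differentiating cells.

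*Sox2*, the SOXB1 gene with the highest level, was lower in *Kat6a*-/- NSPCs in differentiating cells. In proliferating cells, the *Kat6a*+/+ libraries had 338, 314, 308 and 344 CPM. Those of *Kat6a*-/- NSPCs had 252, 247, 293 and 256 CPM. These groups were narrowly apart, but the log2 fold-change of −0.26 (SE 0.10, 95% interval −0.47 to −0.04) missed the threshold (limma FDR 0.0686). It passed with DESeq2 (−0.28, FDR 0.0431), with library quality weights (−0.29 and −0.28, limma FDR 0.0177 and 0.0234) and once *Kat6a*+/- replicate 2 (−0.26, limma FDR 0.0369) or replicate 3 (−0.24, limma FDR 0.0216) was left out.

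In differentiating cells, *Sox2* was at 475, 404, 462 and 499 CPM in *Kat6a*+/+ libraries. In *Kat6a*-/- libraries it was at 248, 442, 255 and 347 CPM. Replicates 1, 3 and 4 of the *Kat6a*-/- group were below the *Kat6a*+/+ range and replicate 2 lay within it. The *Kat6a*-/- mean was 70.3% of the *Kat6a*+/+ mean. The fit, which weights libraries by quality and put 69% of the *Kat6a*-/- weight on replicate 3, gave a log2 fold-change of −0.80 with an SE of 0.10 (limma FDR 3.56e-05). Without weights the log2 fold-change was −0.55 (SE 0.16, limma FDR 0.0316). The call was lost without *Kat6a*-/- replicate 1 (−0.45, limma FDR 0.14) or without replicate 3 (−0.37, limma FDR 0.253).

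*Sox3*, the X-linked SOXB1 gene, did not differ detectably in proliferating cells. Its levels were 168, 158, 151 and 172 CPM in *Kat6a*+/+ libraries. Those of *Kat6a*-/- libraries were 171, 184, 171 and 100 CPM. Replicates 1 to 3 of the *Kat6a*-/- group were in or above the upper part of the *Kat6a*+/+ range and replicate 4 was below all other proliferating libraries. The log2 fold-change was −0.01 (SE 0.14, 95% interval −0.30 to 0.29, limma FDR 0.966), and 0.15 (limma FDR 0.227) without replicate 4.

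In differentiating cells, *Sox3* was at 57.8, 32.5, 50.2 and 41 CPM in *Kat6a*+/+ libraries. It was at 25.5, 42.7, 26.5 and 42.8 CPM in *Kat6a*-/- libraries, of which replicates 2 and 4 lay within the *Kat6a*+/+ range. The estimate was −0.81 on the log2 scale (SE 0.19, limma FDR 0.00313). The call was lost in 6 of 12 alternative fits, among them those without weights (−0.41, SE 0.26, 95% interval −0.99 to 0.17, limma FDR 0.284), and with a term for Y-linked reads (−0.24, limma FDR 0.541). Leaving out *Kat6a*-/- replicate 1 (−0.52, limma FDR 0.407) or replicate 3 (−0.43, limma FDR 0.548) lost it too.

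*Sox21*, the SOXB2 gene, was lower in *Kat6a*-/- cells in both conditions. In proliferating cells it was at 120, 112, 114 and 96.4 CPM in *Kat6a*+/+ libraries. In *Kat6a*-/- libraries it was at 86, 86.6, 78.7 and 96.4 CPM, and only their highest reached the lowest *Kat6a*+/+ value. *Sox21* fell by 0.33 on the log2 scale (SE 0.09, 95% interval −0.52 to −0.14, limma FDR 0.0129).

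In differentiating cells, *Sox21* was at 212, 144, 196 and 212 CPM in *Kat6a*+/+ libraries. All *Kat6a*-/- libraries were lower, with 75.8, 138, 77.5 and 98.6 CPM. The log2 fold-change was −1.29 (SE 0.12, 95% interval −1.56 to −1.02, limma FDR 8.69e-06). It was −0.99 (limma FDR 0.00399) without weights and lost its call without *Kat6a*-/- replicate 3 (−0.84, limma FDR 0.0739). The intervals of *Sox1* did not overlap those of the other 3 genes in either condition.

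Within litters 4633 and 4746, the log2 difference between *Kat6a*-/- and *Kat6a*+/+ libraries in proliferating cells was −0.30 and −0.23 for *Sox2*, 0.23 and −0.004 for *Sox3* and −0.40 and −0.29 for *Sox21*. In differentiating cells it was −0.42 and −0.97 for *Sox2*, −0.56 and −0.63 for *Sox3* and −0.87 and −1.45 for *Sox21*. *Sox2* and *Sox21* were lower in both litters in both conditions, and *Sox3* in both litters in differentiating cells.

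In all, 2 of 4 SOXB genes (*Sox1* and *Sox21*) were called lower in proliferating *Kat6a*-/- NSPCs, where 13.8% of 12276 tested genes were called lower, 16.2% higher and 30% in either direction. In differentiating NSPCs all 4 were called lower, where 27.7% of 13339 tested genes were called lower, 26.7% higher and 54.4% in either direction. Without *Kat6a*-/- replicate 1 the count was 2 of 4, and without replicate 3 it was 1 of 4. Calls were thus common among all genes, most of all in differentiating cells. No SOXB gene was called higher. *Kat6a*+/+ and *Kat6a*-/- libraries did not overlap for *Sox1* and *Sox2* in proliferating cells, where 17.6% of tested genes were apart and lower, 13.7% apart and higher, and 31.3% apart in all. They did not overlap for *Sox1* and *Sox21* in differentiating cells, where these shares were 14.7%, 12.2% and 26.9%.

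**Figure D2:**
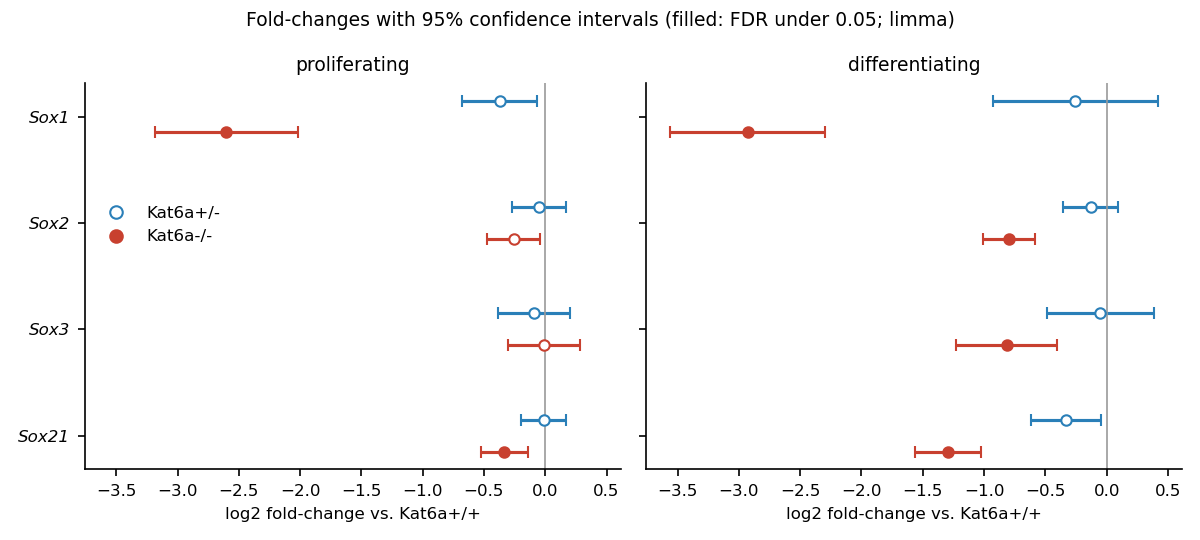
Log2 fold-changes of the SOXB genes vs. *Kat6a*+/+ (horizontal axis) with 95% confidence intervals (bars) in proliferating (left) and differentiating (right) NSPCs, filled where limma FDR was under 0.05. *Kat6a*-/- estimates of *Sox1* lie at −2.60 and −2.93, those of the other genes between −1.29 and −0.01, and no *Kat6a*+/- estimate is filled.

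*Sox2* and *Sox3* were next set beside the decrease of *Sox1* on the RPKM scale. In proliferating cells, the mean difference between *Kat6a*-/- and *Kat6a*+/+ was −6.67 RPKM for *Sox1*, −25.9 RPKM for *Sox2* and −2.88 RPKM for *Sox3*. Neither paralog had a higher mean in *Kat6a*-/- cells. The upper end of the *Sox2* interval was a change of −2.73% from its *Kat6a*+/+ level. The upper end of the *Sox3* interval was 21.9%, which is 17.2 RPKM and exceeds the decrease of *Sox1*, so a rise of *Sox3* as large as that decrease lies within the interval. In differentiating cells the mean differences were −13.2 RPKM for *Sox1*, −55.4 RPKM for *Sox2* and −5.32 RPKM for *Sox3*. In the weighted fit, the upper ends of both intervals were below 0, at −33.4% for *Sox2* and −24.4% for *Sox3*. These are −62.2 and −5.34 RPKM, which is lower than the mean differences, where each library counts alike. The weighted intervals thus do not bound those means. Without library weights the upper ends were −12.3% for *Sox2* and 12.2% for *Sox3*, the latter 2.67 RPKM.

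The sum of the 3 SOXB1 genes was 204 to 229 RPKM in proliferating *Kat6a*+/+ libraries and 153 to 202 RPKM in *Kat6a*-/- libraries. The *Kat6a*-/- mean was 83.7% of the *Kat6a*+/+ mean, and the ranges did not overlap. In differentiating cells the sum was 197 to 242 RPKM in *Kat6a*+/+ and 116 to 201 RPKM in *Kat6a*-/- libraries, a mean of 66.9%, with replicate 2 of the *Kat6a*-/- group within the *Kat6a*+/+ range. *Sox1* was a small share of this sum. It made up 3.6% ± 0.702 in proliferating and 6.80% ± 2.16 in differentiating *Kat6a*+/+ cells, and 0.669% ± 0.149 and 1.39% ± 0.872 in *Kat6a*-/- cells. The share of *Sox3* in proliferating cells was 35.8% ± 0.238 in *Kat6a*+/+ and 40.8% ± 6.65 in *Kat6a*-/- libraries. That of *Sox2* was 60.6% ± 0.629 and 58.6% ± 6.57. No test was run on these sums and shares.

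**Figure D3:**
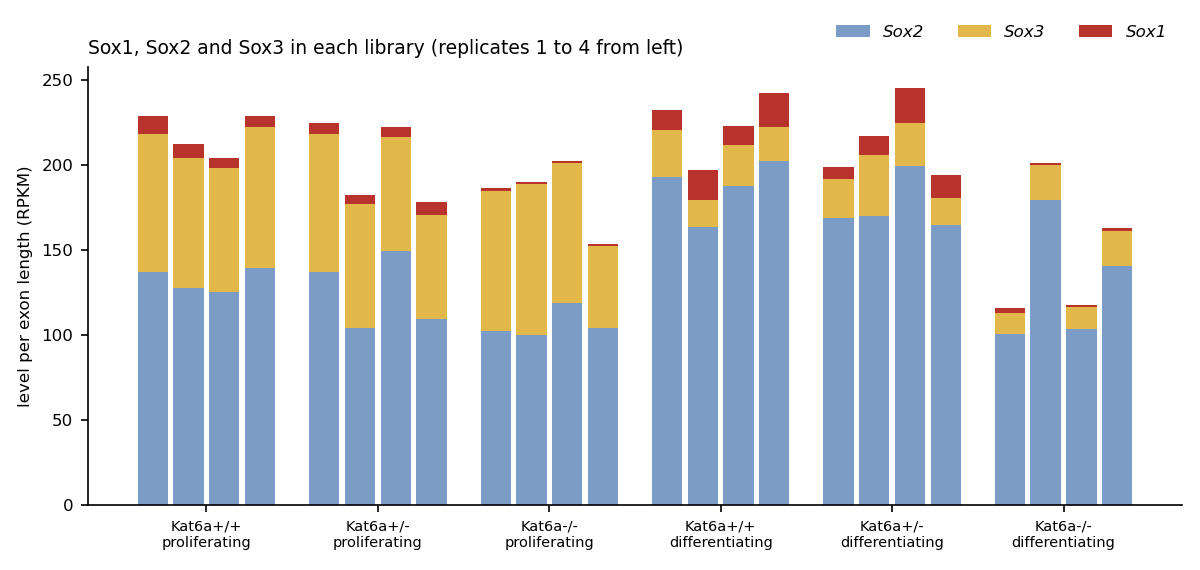
Stacked levels of *Sox2*, *Sox3* and *Sox1* in RPKM (vertical axis from 0) in each library, with replicates 1 to 4 from left within each group. *Sox1* is the thin top segment, at most 20.9 RPKM in any library and 3.05 RPKM or less in *Kat6a*-/- libraries, and the summed height is lower in *Kat6a*-/- groups (means of 183 and 149 RPKM against 218 and 223 RPKM in *Kat6a*+/+).

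In *Kat6a*+/- NSPCs, with 1 functional allele, no SOXB gene was called. Proliferating *Kat6a*+/- libraries had *Sox1* at 24.9, 22.3, 22.4 and 31.9 CPM, and 3 of them were below the *Kat6a*+/+ range. The log2 fold-change was −0.37 (SE 0.14, 95% interval −0.68 to −0.07, limma FDR 0.569). In differentiating cells *Sox1* was at 30.5, 46, 84.2 and 54.2 CPM, which spanned the *Kat6a*+/+ range, with a log2 fold-change of −0.26 (SE 0.31, limma FDR 0.745). Within litters, *Sox1* was lower in the *Kat6a*+/- libraries in all 4 comparisons, at −0.73 and −0.17 in proliferating and −0.53 and −0.84 in differentiating cells on the log2 scale. The −0.73 rests on the proliferating library of label 4113_7.

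For the other SOXB genes, proliferating *Kat6a*+/- log2 fold-changes were −0.05 (*Sox2*), −0.09 (*Sox3*) and −0.01 (*Sox21*). In differentiating cells they were −0.13 (*Sox2*), −0.05 (*Sox3*) and −0.33 (*Sox21*, SE 0.13, limma FDR 0.289). Of the 4 genes, 1 had an unadjusted limma p under 0.05 in each condition (*Sox1* and *Sox21*, respectively), and 0 had one with edgeR or DESeq2. Over all tested genes limma called 0 (0%) in each condition, with 912 and 1926 genes at an unadjusted p under 0.05 in proliferating and differentiating cells. Here edgeR called 0 and DESeq2 called 28 and 8. None of the 4 SOXB genes had *Kat6a*+/- libraries apart from *Kat6a*+/+ libraries in either condition, against 2.64% lower, 1.89% higher and 4.53% in all of tested proliferating genes and 1.36%, 1.42% and 2.79% of differentiating genes.

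*Kat6a*-/- cells were also set against *Kat6a*+/- cells. In proliferating cells, *Sox1* (log2 fold-change −2.23, limma FDR 0.000312) and *Sox21* (−0.32, limma FDR 0.0246) were called lower, 2 of 4 against 6.3% of tested genes lower, 8.47% higher and 14.8% in either direction. *Sox2* (−0.21, limma FDR 0.16) and *Sox3* (0.08, limma FDR 0.705) were not. In differentiating cells all 4 were called lower, against 18.5% of tested genes lower, 19.1% higher and 37.5% in either direction, at −2.67 for *Sox1*, −0.66 for *Sox2*, −0.76 for *Sox3* and −0.96 for *Sox21* (limma FDR 0.000241 to 0.0187). With litter as a fixed term 0 of 4 were called (limma FDR 0.0533 to 0.124). Without weights, and with edgeR or DESeq2, 2 of the 4 were called, and 1 and 0 without *Kat6a*-/- replicate 1 or 3. Libraries of these groups did not overlap for *Sox1* and *Sox21* in either condition, against 6.07% of tested genes lower, 6.22% higher and 12.3% in all in proliferating and 9.48%, 6.74% and 16.2% in differentiating cells.

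The SOXB genes also differed between conditions, in opposite directions. In *Kat6a*+/+ cells, *Sox1* (log2 fold-change 0.83, SE 0.25, limma FDR 0.00581), *Sox2* (0.49, SE 0.15, limma FDR 0.00465) and *Sox21* (0.77, SE 0.16, limma FDR 0.000204) were higher in differentiating than in proliferating cells. *Sox3* was lower, at −1.87 (SE 0.22, limma FDR 1.86e-07). All 4 were called, as were 72.9% of 13590 tested genes (36.2% lower and 36.7% higher). In *Kat6a*+/- libraries *Sox3* was at 169, 150, 139 and 126 CPM in proliferating and 47.3, 74, 52.3 and 33.2 CPM in differentiating cells, and these ranges were apart. All 4 genes were called in the same directions as in *Kat6a*+/+ cells, against 69.7% of genes (34.2% lower and 35.4% higher). *Sox1* was higher by 1.01, *Sox2* by 0.50 and *Sox21* by 0.57, and *Sox3* was lower, at −1.55 (limma FDR 3.19e-06 to 0.0037).

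In *Kat6a*-/- cells *Sox3* was lower in differentiating cells as well (−2.18, SE 0.23, limma FDR 5.61e-08). *Sox1* (0.50, SE 0.62, limma FDR 0.484), *Sox2* (0.26, limma FDR 0.105) and *Sox21* (0.13, limma FDR 0.509) were not called, so 1 of 4 passed against 69.2% of tested genes (33.5% lower and 35.8% higher). Without *Kat6a*-/- differentiating replicate 1 or 3, *Sox2* was called too (0.36 and 0.34, limma FDR 0.0289 and 0.0453). The difference between genotypes was itself tested as an interaction of condition and *Kat6a*-/-. It was largest for *Sox21* (−0.64, SE 0.23, limma FDR 0.0643) and was called for none of the 4 genes in the limma-voom fit with a litter block or with edgeR, against 13.9% of tested genes (7.58% lower and 6.36% higher). Without *Kat6a*+/+ differentiating replicate 2 (−0.82, limma FDR 0.0173) or *Kat6a*-/- differentiating replicate 2 (−0.89, limma FDR 0.00205), *Sox21* was called. DESeq2 and limma-voom with library totals or litter as a fixed term called *Sox21* (−0.63, −0.79 and −0.78), and limma-voom with quality weights called *Sox2*, *Sox3* and *Sox21* (−0.41, −0.78 and −0.84). At the chosen settings, 1 of the 4 had an unadjusted p under 0.05 with each tool. The interaction of condition and *Kat6a*+/- was called for 0 of 4 SOXB genes and, with limma, edgeR and DESeq2, for 0 of all tested genes (0%). At an unadjusted p under 0.05, 0 SOXB genes passed with any of these tools, and 412 genes with limma.

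Libraries of the 2 conditions were also paired by embryo label. In the 5 labels other than 4113_7, *Sox3* was lower after differentiation in all 5, at −2.69 to −1.23 on the log2 scale. *Sox1* was higher in all 5, by 0.23 to 0.82. *Sox2* was higher in 4, and lower (−0.20) for the *Kat6a*-/- label 4746_4. *Sox21* was at 0.78 for the *Kat6a*+/+ label 4633_8, 0.57 for the *Kat6a*+/- label 4633_5 and 0.67 for the *Kat6a*-/- label 4633_6, and at −0.02 and 0.03 for the other *Kat6a*-/- labels. The pair labelled 4113_7 was at 0.18 for *Sox1*, 0.49 for *Sox2*, −1.54 for *Sox3* and 0.82 for *Sox21*. With both libraries of the label 4113_7 left out of the fit, all 4 SOXB genes remained called in *Kat6a*+/+ cells, with *Sox1* at 1.16, *Sox2* at 0.52, *Sox3* at −1.94 and *Sox21* at 0.78.

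**Figure D4:**
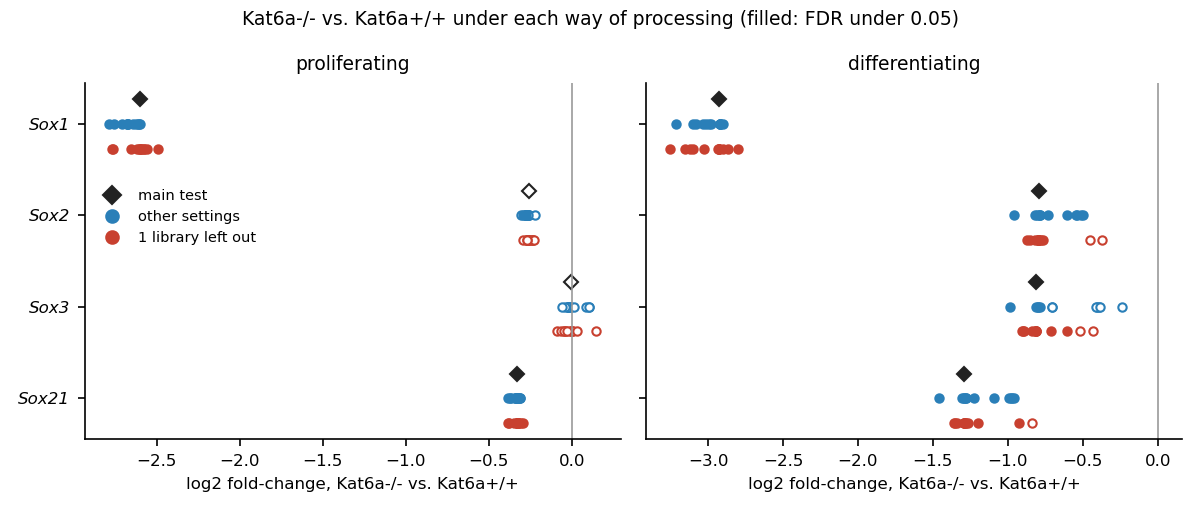
Log2 fold-changes of the SOXB genes in *Kat6a*-/- vs. *Kat6a*+/+ NSPCs (horizontal axis) in the main test (diamonds), 12 other settings (blue) and with each of 12 libraries left out in turn (red), filled where FDR was under 0.05. *Sox1* is filled throughout, whereas *Sox3* in differentiating cells ranges from −0.98 to −0.24 and loses its call in several settings.

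Non-coding genes overlap all 4 loci. *Sox1ot* and *Sox2ot* run on the strand of *Sox1* and *Sox2* and share 0 exon bases with them. *Sox21os1* lies on the opposite strand and shares 768 of 3799 exon bases with *Sox21*. *Gm14662* shares 361 of 2065 exon bases with *Sox3* from the opposite strand. The libraries were stranded, but the strand setting of the counting was not stated, so reads of these opposite-strand pairs cannot be told apart with certainty.

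*Sox1ot* had 1 to 28 reads per proliferating library and was not tested there. In differentiating *Kat6a*+/+ libraries it was at 9.8, 8.96, 8.88 and 8.84 CPM. In differentiating *Kat6a*-/- libraries it was at 1.51, 1.17, 0.663 and 2.33 CPM, below all others. Its log2 fold-change was −3.19 (SE 0.28, limma FDR 5.05e-06) in a fit over all gene types, beside −2.93 for *Sox1*. *Sox2ot* was at −0.71 (limma FDR 0.00402), *Sox21os1* at −0.74 (limma FDR 0.0118) and *Gm14662* at −0.58 (limma FDR 0.0669) in differentiating *Kat6a*-/- cells. In proliferating cells none of these 3 was called, with 0.37, 0.33 and 0.07. The interaction was called for *Sox2ot* (−1.06, limma FDR 0.0169), whereas *Sox2* itself was at −0.23 (limma FDR 0.479).

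The nearest tested protein-coding genes were examined as well. Of the 4 around *Sox1*, *Arhgef7*, *Ankrd10*, *Tubgcp3* and *Atp11a*, at 214 to 759 kb, none was called in proliferating *Kat6a*-/- cells and *Tubgcp3* alone in differentiating cells (−0.39, limma FDR 0.000119). Their log2 fold-changes lay between −0.39 and 0.07. Of the 4 around *Sox2*, *Fxr1* was lower in proliferating (−0.23, limma FDR 0.0219) and higher in differentiating cells (0.14, limma FDR 0.0477), and *Atp11b* was higher in differentiating cells (0.27, limma FDR 0.00174). Around *Sox21*, *Dzip1* was higher in proliferating (0.89, limma FDR 0.00133) and lower in differentiating *Kat6a*-/- cells (−0.20, limma FDR 0.0451), and *Gpr180* was lower in the latter (−0.16, limma FDR 0.0438). Around *Sox3*, *Slitrk2* (0.92, limma FDR 0.000159) and *Gm715* (0.56, limma FDR 0.0298) were higher in proliferating cells, and *Gm715* (−0.64, limma FDR 0.0318) and *Fmr1* (−0.23, limma FDR 0.0145) were lower in differentiating cells.

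The other SOX genes encode HMG-box factors of related subgroups, such as SOXC (neuronal maturation), SOXD and SOXE (glial development). Of 15 listed, 8 were tested in proliferating *Kat6a*-/- cells, and 3 were lower and 1 higher, against 13.8% of tested genes lower and 16.2% higher. *Sox13* fell by 0.61 (limma FDR 0.00217) and *Sox11*, a SOXC factor of young neurons, by 0.46 (limma FDR 0.00189), and *Sox5* rose by 0.40 (limma FDR 0.0108), on the log2 scale. In differentiating cells, 8 of 10 tested were lower and 1 higher, against 27.7% of tested genes lower and 26.7% higher. The lowest estimates in the weighted fit were those of *Sox5* (−1.44, limma FDR 0.000138) and *Sox11* (−1.30, limma FDR 0.000284). *Sox5* libraries overlapped, at 14.1 to 52.0 CPM in *Kat6a*-/- and 42.5 to 57.2 CPM in *Kat6a*+/+ cells, whereas those of *Sox11* did not, at 26.7 to 61.7 against 73.6 to 128 CPM. On the other side, *Sox7* rose by 1.05 (limma FDR 0.0317). The median log2 fold-change of these genes was −0.21 and −0.85, beside −0.005 and −0.016 over all tested genes. The family had been singled out from these same libraries, so this is not independent evidence of its direction. *Sox14*, the other SOXB2 gene, had 0 counts in all groups but differentiating *Kat6a*+/-, where it reached 0.0556 CPM.

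Partner factors of SOXB proteins were a list of 6, with POU factors, *Pax6* and the chromatin remodeller gene *Chd7*. In proliferating *Kat6a*-/- cells 1 was called, *Pou3f3*, at 172 to 189 CPM against 273 to 325 CPM in *Kat6a*+/+ libraries (log2 fold-change −0.66, limma FDR 0.000175). Over all tested genes, 13.8% were called lower and 16.2% higher there. Among differentiating cells 4 of 6 were lower and none higher, against 27.7% of tested genes lower and 26.7% higher. *Pou3f4* fell by 1.52 (limma FDR 1.74e-05) and *Pou3f2* by 1.50 (limma FDR 0.00013) on the log2 scale. *Pou3f1* was at −0.51 in proliferating (limma FDR 0.291) and 0.51 in differentiating cells (limma FDR 0.219). *Pax6*, a partner of *Sox2* in the eye and a dorsal progenitor factor, was at 58.8 to 69.5 CPM in *Kat6a*-/- and 59.7 to 74.7 CPM in *Kat6a*+/+ differentiating libraries (log2 fold-change −0.07, limma FDR 0.392).

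**Figure D5:**
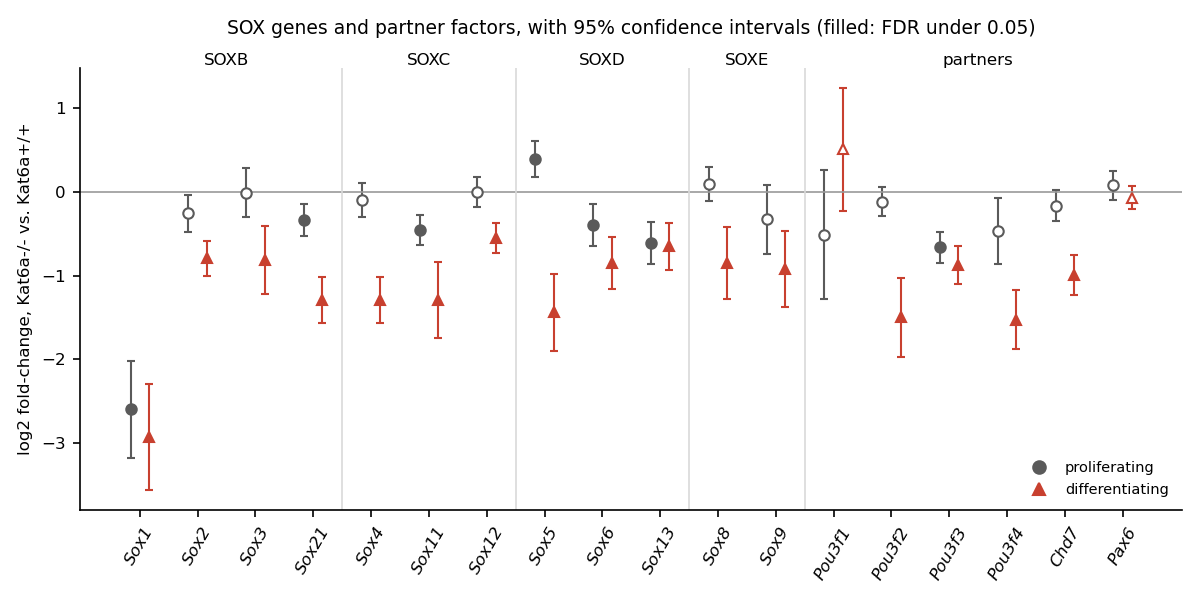
Log2 fold-changes in *Kat6a*-/- vs. *Kat6a*+/+ NSPCs (vertical axis) with 95% confidence intervals for SOXB genes, other SOX genes tested in both conditions and partner factors, in proliferating (circles) and differentiating (triangles) cells, filled where limma FDR was under 0.05. *Sox1* lies lowest in both conditions, at −2.60 and −2.93, and the called partner factors in differentiating cells lie between −1.52 (*Pou3f4*) and −0.87 (*Pou3f3*), with *Pou3f1* unfilled at 0.51.

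To describe which genes had a pattern most like each SOXB gene, Pearson's r of log2 CPM was taken over the 24 libraries after the mean of each condition was subtracted, for 13589 genes. The libraries share their genotype differences and litters, so r is a description. For *Sox1* the closest were *H1f0*, a linker histone gene (r = 0.898), *Cdkn1b*, which encodes a cell cycle inhibitor (0.894), and *Dact1* (0.893). For *Sox2* they were *Klf12* (0.912), *Amz2* (0.911) and the partner factor *Pou3f4* (0.905). For *Sox3* they were *Prr18* (0.849), *Fndc4* (0.833) and *Nap1l1* (0.831), and for *Sox21* *Klhl13* (0.925), *Pdzph1* (0.910) and *Cacfd1* (0.907). Between SOXB genes, r was highest for *Sox2* and *Sox21* (0.798) and lowest for *Sox1* and *Sox3* (0.280).

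Markers of cell state and of other cell types moved with the genotype in differentiating cells, and some of them in proliferating cells. All 7 cell cycle genes were lower in differentiating *Kat6a*-/- cells, at a sum of 96.0 to 245 CPM against 618 to 1038 CPM in *Kat6a*+/+ libraries, with *Mki67* at −3.50 (limma FDR 2.49e-06) on the log2 scale. In proliferating cells 3 of 7 were lower, at 1514 to 2725 against 2684 to 3047 CPM. Of 10 neural progenitor genes, 3 were higher and 5 lower in differentiating *Kat6a*-/- cells. *Nes* (1.04, limma FDR 0.00126) and *Vim* (0.61, limma FDR 0.000641) rose and *Hes5*, a Notch target, fell by 4.58 (limma FDR 6.59e-06). In proliferating *Kat6a*-/- cells 3 of these 10 genes were called higher and 3 lower, with *Nes* and *Vim* among the lower. Of 9 proneural and neuronal genes tested in differentiating cells, 7 were lower and 2 higher. In proliferating cells 2 of 5 tested were lower and 2 higher. Over all tested genes, 27.7% were called lower and 26.7% higher in differentiating cells, and 13.8% and 16.2% in proliferating cells. Mesenchymal markers summed to 20.4 to 194 CPM in differentiating *Kat6a*-/- libraries and 11.99 to 26.5 CPM in *Kat6a*+/+ libraries, and to at most 2.44 CPM in proliferating libraries. In differentiating *Kat6a*-/- libraries *Col1a1* was at 9.24 to 176 CPM and *Col1a2* at 0.531 to 17 CPM. *Col3a1*, *Dcn*, *Lum* and *Twist1* were at 1.38 CPM or less in these libraries and were not tested. Oligodendrocyte lineage markers summed to 642 to 1185 against 1183 to 1388 CPM in differentiating cells, and to 2557 to 2990 against 2288 to 2729 CPM in proliferating cells. They did not move as 1. In differentiating *Kat6a*-/- cells 3 of 4 tested were called lower and 1, *Cspg4*, higher. In proliferating cells 1 of 4 was called, and it was higher. Astrocyte markers summed to 203 to 2794 CPM in differentiating *Kat6a*-/- and 469 to 878 CPM in *Kat6a*+/+ libraries. Of 4 tested there, the weighted fit called *S100b* higher and *Aqp4* and *Aldh1l1* lower. *Aqp4* libraries overlapped, at 14.1 to 839 CPM in *Kat6a*-/- and 79.5 to 144 CPM in *Kat6a*+/+ cells. In proliferating *Kat6a*-/- cells *Gfap* and *S100b* were called higher, 2 of 3 tested. *Cx3cr1*, which defines microglia, was at 0 in 5 of 6 groups, and all microglia markers summed to 0.783 CPM or less. The part of these differences in the SOXB results was not tested.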

How the data were processed

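RNA-seq counts of 24 NSPC libraries (6 groups of 4, in 2 conditions and 3 genotypes) were analysed. The authors aligned reads to mm39 with Rsubread, counted them per gene of a strict RefSeq mm39 annotation with featureCounts and deposited raw counts with exon lengths. The strand setting and the tool versions of the RNA-seq counting were not given in the sources used here. Over all genes, counting error was small beside the spread between libraries, whose totals ranged from 7826660 to 40838203. It weighs more for genes with few reads, such as *Sox1* in proliferating *Kat6a*-/- libraries (32 to 56 reads). No replicates agreed within sampling noise (lowest chi-square per degree of freedom 5.55).

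Groups came from the sample titles. Of 26411 genes, 26359 matched a RefSeq gene list by Entrez identifier, and 21030 protein-coding genes entered, without *Xist* and Y-linked genes. After filterByExpr, 12276 (proliferating), 13339 (differentiating) and 13590 (both conditions) were tested. Proliferating libraries and both conditions together were fitted with limma-voom with litter as a random block, and differentiating libraries with limma-trend on log2 CPM (prior count 2) with array weights, all with TMM factors, robust moderation and Benjamini-Hochberg FDR. R 4.3.3, limma 3.58.1, edgeR 4.0.16 and DESeq2 1.42.0 were used, and the fits were tested on simulated data. CPM and RPKM were computed on the factors of all 24 libraries. Replicate numbers are not stated to mark a shared embryo or day. Deviations of same-numbered libraries had a median r of −0.0126 over 12 proliferating pairs (−0.428 to 0.545). The median r was −0.172 over 12 differentiating pairs (−0.483 to 0.156).

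The SOXB genes, the gene lists and the tests were chosen with earlier results of these data known. Named beside the SOXB genes were the 2 largest called rises and falls of a list, the 2 nearest tested protein-coding genes on each side, the 3 genes of highest r and overlapping non-coding genes. *Chd7*, *Pou3f1*, *Pax6*, *Emx1*, *Nkx2-1*, *Dlx1*, *Cx3cr1*, *Sox14*, *Col3a1*, *Dcn*, *Lum* and *Twist1* were named after their values were seen. Some genes that the rule would name are not reported here. Alternatives were other scaling, no low-count filter, all gene types, edgeR, DESeq2, litter or Y-linked reads as a term, a replicate block, other use of weights, and each library left out.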

Additional observations from a re-analysis of the deposited data

Results flagged for a closer look

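Dixon's test on each gene in each group of 4 libraries marked a library far from the other 3 in 2 of 24 cases, and chance marks about 1 in 20 groups. *Sox2* in *Kat6a*+/- differentiating replicate 3 was at 491.3 CPM, against 405.6 to 419 CPM in the other 3. *Sox3* in *Kat6a*-/- proliferating replicate 4 was at 100.2 CPM, against 170.6 to 183.5 CPM in the other 3. Without the latter library the log2 fold-change of *Sox3* in proliferating *Kat6a*-/- cells was 0.15 (limma FDR 0.227) in place of −0.01.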

How the results depend on the processing

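In *Kat6a*-/- vs. *Kat6a*+/+ cells, *Sox1* in both conditions and *Sox21* in proliferating cells kept their calls in all alternatives and with each library left out. *Sox2* in proliferating cells passed the threshold with DESeq2 (−0.28), limma-trend with quality weights (−0.29) and voom with quality weights (−0.28), and was at −0.30 to −0.23 with a library left out. *Sox3* in proliferating cells turned positive with litter as a fixed term (0.10), a term for Y-linked reads (0.014), limma-trend with weights (0.083) and voom with weights (0.10), with −0.089 to 0.15 for left-out libraries. *Sox3* in differentiating cells lost its call with edgeR (−0.40), DESeq2 (−0.39), litter fixed (−0.71), Y-linked reads (−0.24), no weights (−0.41) and voom with litter block (−0.38). Left-out libraries gave −0.91 to −0.43 for *Sox3*, −0.87 to −0.37 for *Sox2*, −1.36 to −0.84 for *Sox21* and 1 to 4 called SOXB genes there. In these and the following cases the cause was not tested.

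In *Kat6a*+/- vs. *Kat6a*+/+ cells, where nothing was called, signs turned for *Sox3* (0.01, litter fixed) and *Sox21* (0.029 edgeR, 0.03 DESeq2, 0.002 replicate block, 0.023 no litter block) in proliferating cells. They turned for *Sox3* in differentiating cells with edgeR (0.18), DESeq2 (0.19), litter fixed (0.38), Y-linked reads (0.29), no weights (0.16) and voom with litter block (0.15). Left-out libraries gave −0.15 to 0.033 (*Sox2*) and −0.062 to 0.039 (*Sox21*) in proliferating cells, and −0.59 to 0.33 (*Sox1*) and −0.15 to 0.16 (*Sox3*) in differentiating cells.

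In *Kat6a*-/- vs. *Kat6a*+/- proliferating cells, left-out libraries gave −0.002 to 0.28 for *Sox3*, −0.39 to −0.27 for *Sox21* and 1 to 2 called genes, with 1 without *Kat6a*-/- replicate 1 or *Kat6a*+/- replicate 2 or 4. In differentiating cells litter as a fixed term left 0 of 4 called (−2.39, −0.61, −1.08 and −0.84 for *Sox1*, *Sox2*, *Sox3* and *Sox21*). *Sox2* and *Sox3* lost their calls, leaving 2, with edgeR (−0.42 and −0.58), DESeq2 (−0.41 and −0.58), Y-linked reads (−0.40 and −0.53), no weights (−0.45 and −0.57) and voom with litter block (−0.45 and −0.53), and *Sox3* also without the low-count filter (−0.69) and with the replicate block (−0.76). Left-out libraries gave −3.26 to −2.34, −0.76 to −0.26, −0.95 to −0.41 and −1.15 to −0.54 for the 4 genes, and 0 to 4 calls.

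Between conditions, using embryo labels found in both left 1 *Kat6a*+/- library per condition, assumed to vary like the other groups, and so lost calls say nothing about stability there. This left 2 of 4 called in *Kat6a*+/+ (*Sox1* 0.47 and *Sox2* 0.58 lost) and 1 in *Kat6a*+/- cells (*Sox1* 0.46, *Sox2* 0.19 and *Sox21* 0.58 lost). Leaving out label 4113_7 as well, an alternative chosen after seeing the data, also left 1 *Kat6a*+/+ library per condition, with the same limit, and 0 calls in *Kat6a*+/+ (0.82, 0.59, −1.58 and 0.79 for *Sox1*, *Sox2*, *Sox3* and *Sox21*) and 0 in *Kat6a*+/- cells (0.44, 0.16, −1.57 and 0.56). Litter as a fixed term left 2 in *Kat6a*+/- cells (*Sox1* 0.50 and *Sox2* 0.47 lost). In *Kat6a*-/- cells *Sox21* was at −0.005 with voom and quality weights and −0.085 to 0.22 with libraries left out, *Sox2* at 0.07 to 0.36, and 1 to 2 genes were called. The *Kat6a*-/- interaction of *Sox21* was called with library totals (−0.79), DESeq2 (−0.63) and litter fixed (−0.78), 1 gene each, and voom with quality weights called 3 (*Sox2* −0.41, *Sox3* −0.78 and *Sox21* −0.84). Left-out libraries gave −0.89 to −0.59 for *Sox21* and 0 to 1 calls.

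The replicate block, for which the libraries share only a number, gave *Sox1* −2.68 and −2.98, *Sox2* −0.27 and −0.81, *Sox3* −0.04 and −0.79, and *Sox21* −0.33 and −1.31 in proliferating and differentiating *Kat6a*-/- vs. *Kat6a*+/+ cells, and changed none of these calls. With 4 libraries a group, in part of shared litters and unequal sex, small differences such as a moderate rise of *Sox3* were not detectable. In differentiating cells the estimates rest on few heavily weighted libraries, and *Sox1* in *Kat6a*-/- cells on few reads.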
